A study of Mus musculus with 220 samples.

Results

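Apolipoproteins are the protein part of lipoprotein particles, and the liver is the main source of most of them in mice. Some build the particle: apolipoprotein B is the structural protein of very low density and low density lipoproteins, and apolipoprotein A-I is that of high density lipoproteins. Others act on the enzymes and receptors that handle the particle, since apolipoprotein C-II activates lipoprotein lipase, apolipoproteins C-I and C-III oppose the clearance of triglyceride-rich particles, and apolipoprotein E mediates the uptake of remnant particles by the liver. Here the hepatic transcripts of 10 apolipoprotein genes (Apoa1, Apoa2, Apoa4, Apoa5, Apob, Apoc1, Apoc2, Apoc3, Apoe and Apom) were described across maternal strains. The genes were chosen by symbol, and all 12 probe sets that carried 1 of these symbols were kept, out of 17097 genes and 45037 probe sets.

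RNA came from the livers of 220 female F1 mice of 96 maternal strains, 1 array per mouse. Each mother was of an inbred or recombinant inbred strain, and each father was C57BL/6J and carried ApoE-Leiden, a human APOE variant that slows remnant clearance, and human CETP, a plasma lipid transfer protein that mice lack. All mice therefore shared a C57BL/6J father, both transgenes and the diet, and no group without the transgenes was analysed here. They ate chow for 8 weeks, then a Western diet for 16 weeks, and were 24 weeks old. The strains were 34 BXD (83 mice, from C57BL/6J and DBA/2J), 21 AXB/BXA (47 mice, from A/J and C57BL/6J), 8 CXB (17 mice, from BALB/cJ and C57BL/6J), 4 BXH (8 mice, from C57BL/6J and C3H/HeJ) and 29 classical inbred strains (65 mice), with 1 mouse in 9 strains, 2 in 51, 3 in 35 and 4 in 1. The methods give the transgene insertion sites and copy numbers as unknown. None of the probe sets was annotated to human APOE or CETP, and the ApoE-Leiden construct is known to hold the human APOC1 gene as well. Whether human APOE or APOC1 mRNA added to the signal of the mouse Apoe and Apoc1 probe sets was not tested.

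The values are log2 signals after robust multi-array averaging, so a difference of 1 is a doubling of signal. They ran from 1.90 to 13.94 over the whole table, with a median probe set mean of 3.46. The hepatocyte list (5 of 7 genes measured) lay near the top of that range, with strain means between 12.91 and 13.09. The macrophage and Kupffer cell list (8 of 8 measured) lay between 8.46 and 9.84. Of the markers of other organs, the adipocyte list (2 of 4 genes measured) lay between 2.44 and 2.80 and the pancreatic acinar list (3 of 4 measured) between 3.995 and 4.41. The enterocyte list (3 of 5 measured) lay higher, between 5.34 and 6.03, and holds Fabp2, whose mean is given below. In whole liver, fewer cells of a type and less RNA per cell cannot be told apart.

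The genes lie in 2 clusters and 3 single loci. In RefSeq (GRCm38.p6), Apoa1, Apoc3, Apoa4 and Apoa5 are neighbours on chromosome 9, and Apoe, Apoc1 and Apoc2 are neighbours on chromosome 7. Apoa2, Apob and Apom lie on chromosomes 1, 12 and 17. The upstream sequences of Apoa4, Apoa5, Apoc2 and Apom are shown because these 4 genes had the widest ranges of strain means among those called below, and because Apoa4 and Apoc2 moved together although they are on different chromosomes. Each is the 250 bases before the annotated start, 5′ to 3′ on the gene's strand, from RefSeq GRCm38.p6. Apoa4 is at chr9:46240594-46240843 (plus strand), Apoa5 at chr9:46268358-46268607 (plus), Apoc2 at chr7:19677942-19678191 (minus) and Apom at chr17:35131802-35132051 (minus). Capitals mark a match, on either strand, to the TATA box TATAAA, the nuclear receptor motif AGGTCA, the hepatocyte nuclear factor 4 alpha element CAAAGTCCA or the hepatocyte nuclear factor 1 element.
Apoa4: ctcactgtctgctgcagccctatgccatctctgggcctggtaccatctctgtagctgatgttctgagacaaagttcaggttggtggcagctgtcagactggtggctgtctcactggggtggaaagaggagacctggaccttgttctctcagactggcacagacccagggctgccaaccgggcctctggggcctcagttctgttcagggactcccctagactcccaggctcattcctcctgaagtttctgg
Apoa5: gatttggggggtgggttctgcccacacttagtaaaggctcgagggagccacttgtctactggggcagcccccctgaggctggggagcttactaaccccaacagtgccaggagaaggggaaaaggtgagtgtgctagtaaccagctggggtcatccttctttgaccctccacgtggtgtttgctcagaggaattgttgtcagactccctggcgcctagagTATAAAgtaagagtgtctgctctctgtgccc
Apoc2: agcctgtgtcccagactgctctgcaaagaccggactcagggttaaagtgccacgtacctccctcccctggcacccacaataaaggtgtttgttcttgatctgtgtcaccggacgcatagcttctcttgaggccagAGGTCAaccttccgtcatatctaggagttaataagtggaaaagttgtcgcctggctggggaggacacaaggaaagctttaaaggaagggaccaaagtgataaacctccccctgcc
Apom: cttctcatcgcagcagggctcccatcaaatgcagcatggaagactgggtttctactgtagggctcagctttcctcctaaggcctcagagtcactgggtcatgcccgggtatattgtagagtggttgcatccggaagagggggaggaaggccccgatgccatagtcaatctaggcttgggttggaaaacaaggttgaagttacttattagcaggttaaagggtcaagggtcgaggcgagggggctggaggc

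The TATA box was found in Apoa5, from 31 to 26 bases before the start shown. From a second annotated Apoa5 start, the same match lies from 56 to 51 bases before it. The nuclear receptor motif was found in Apoc2, from 115 to 110 bases before the start. No match was found in the windows of Apoa4 and Apom. Over all 32851 promoter windows of the same length, 12.4% held the TATA box, 14% the nuclear receptor motif, 0.384% the hepatocyte nuclear factor 4 alpha element and 0.00913% the hepatocyte nuclear factor 1 element. A match is a run of letters and was not tested for binding.

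The 10 genes fell into 3 ranges of signal and of spread. Apoa2 (mean 13.42), Apoa1 (13.28), Apoc3 (13.08), Apoe (12.94) and Apoc1 (12.67) had means above 12 and varied little, with SDs of strain means between 0.036 and 0.070. Apoa5 (11.45), Apom (11.41), Apoc2 (11.39) and Apoa4 (10.84) varied more, with SDs of strain means between 0.161 and 0.529. The Apob probe set (8.86) had an SD of strain means of 0.354, and an SD among mice of the same strain of 0.627, or 0.343 once the order in which a strain's mice are listed was in the model. Each probe set responds to its own probes, so these positions are not relative amounts of mRNA. On single arrays the Apoe probe set ranked between 10 and 60 from the top of 45037, Apoa1 between 1 and 16 and Apoa2 between 1 and 7. Signal so near the top of the range can be compressed, and its part in the narrow spread of these genes was not tested. The 189 probe sets with a mean of 12 or more had a median within-strain SD of 0.0739.

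**Figure D1:**
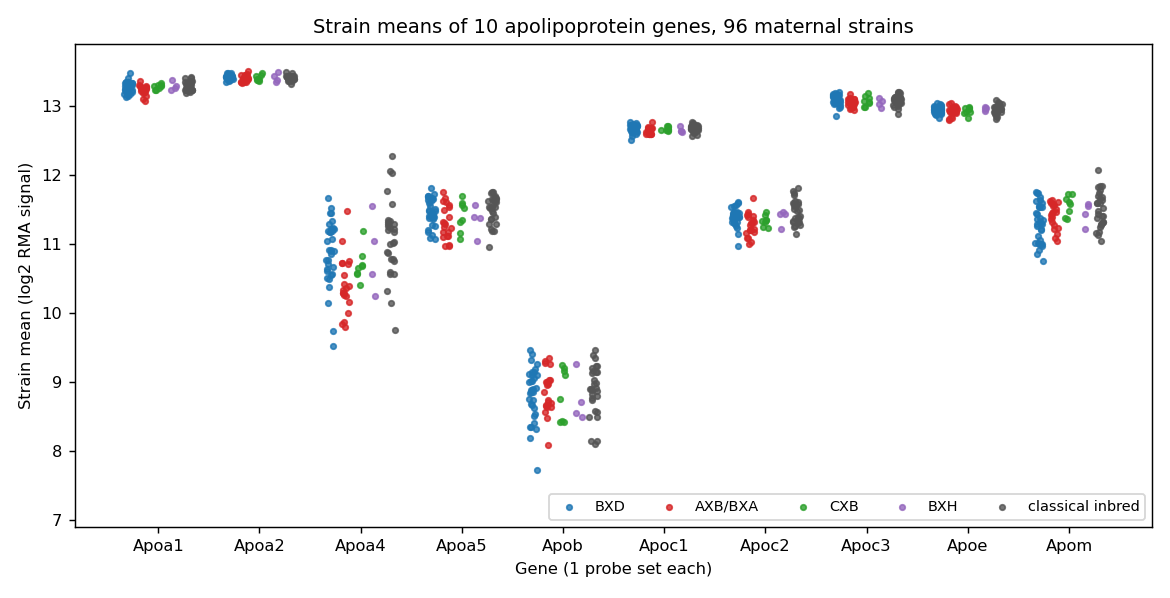
Strain means (log2 signal) of 96 maternal strains for 1 probe set of each gene, coloured by panel, with a point for each strain. Apoa4 spans 2.76 log2 units between its lowest and highest strain, while Apoa2 spans 0.18.

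Of the 10 genes, 7 differed between strains by limma's moderated F-test over 211 mice of 87 strains, with adjusted p under 0.05 over all probe sets. Of all 17097 genes, 59.2% were called in this test, and of the 189 probe sets with a mean of 12 or more, 84.7% were called. The share was 92.3% among the 1386 probe sets with a mean from 10 to 12. The called genes were Apom (adjusted p = 1.87e-22), Apoa5 (1.34e-18), Apoa4 (7.63e-14), Apoc2 (1.88e-09), Apoc3 (1.44e-07), Apoc1 (0.00162) and Apoa1 (0.0119). Apoe (adjusted p = 0.125), Apoa2 (0.5) and Apob (0.997) were not, but the Apob value changed with the order of listing. The share of variance between strains, from a one-way random-effects model, was 0.73 for Apom, 0.68 for Apoa5, 0.58 for Apoa4, 0.52 for Apoc3, 0.50 for Apoc2, 0.42 for Apoc1, 0.27 for Apoa1, 0.20 for both Apoa2 and Apoe, and 0 for Apob. The median over the members was 0.461. It was 0.251 over all genes and 0.502 over the 1386 probe sets with a mean from 10 to 12. Over the 189 with a mean of 12 or more it was 0.450. Of the members with a mean of 12 or more, Apoa1, Apoa2, Apoc1 and Apoe lay below 0.450 and Apoc3 above it. Of those with a mean from 10 to 12, Apom, Apoa5 and Apoa4 lay above 0.502 and Apoc2 close to it. Apob, with a mean of 8.86, is in neither range, so the median over the members hides this split. Effects of litter, cage or day that mice of a strain shared cannot be told apart from strain here. The calls of Apoa1 and Apoc1 were lost without the first, the second or, where present, the third mouse of every strain. Adjusted p of the F-test then lay between 0.105 and 0.43 for Apoa1 and between 0.146 and 0.449 for Apoc1. Leaving out the first or second mouse left the 51 strains with 2 mice without replication. In the 35 strains with 3 mice, all kept, the F-test called both (adjusted p = 0.0396 for Apoa1 and 0.00972 for Apoc1). Whether the losses came from fewer mice was not tested.

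The mice of a strain are listed in an order to which the labels give no meaning, and many probe sets moved with the place of a mouse in it. With strain in the model, limma's F-test called a difference between the places for 33.4% of all genes at adjusted p under 0.05. Of the 10 members, only Apob was called (adjusted p = 3.11e-30), and its F ranked 4 of 45037 probe sets. In the 35 strains with 3 mice, the first mouse lay 0.17 ± 0.19 (log2, SD) from the strain mean, the second -0.68 ± 0.17 and the third 0.51 ± 0.16, and the second was lowest in 35 of 35 strains. In the 51 strains with 2 mice, the second lay below the first in 44. For the other 9 members the mean deviations of the 3 places lay between -0.04 and 0.02, and the adjusted p between 0.103 and 0.957. No plate, scan or extraction was given that could be set against the listing order, and the source of the shift was not tested.

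With the place as a factor beside strain, 8 members were called, beside 62.1% of all genes, and the added one was Apob (adjusted p = 3.84e-05, share 0.35). In the 35 strains with 3 mice alone, where the places are balanced, the same fit called 8 members, Apob among them (adjusted p = 1.43e-08, share 0.53), beside 57.7% of all genes. Without the place, Apob was not called in these strains (0.984). The other 9 members kept their calls in both fits, and with the place their shares over all strains lay between 0.20 and 0.73. The place does not hold where in the series a strain was listed, and Apob signal differed along it. Second mice of C57BLKS/J, BXD75/RwwJ and BXD69/RwwJ, for example, read 7.59, 7.55 and 7.53. Those of BXD64/RwwJ, BXD66/RwwJ and BXA8/PgnJ, listed later, read 9.38, 9.08 and 9.13, though BXA11/PgnJ, later still, read 8.43. The part of position in the series in the Apob calls was not tested.

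**Figure D2:**
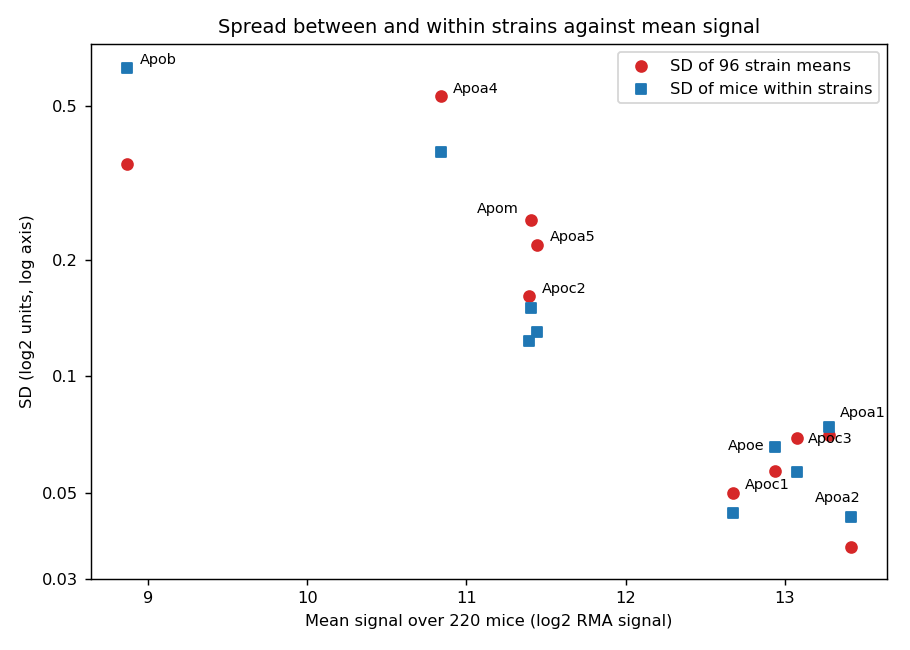
SD of the 96 strain means (circles) and SD of mice within strains (squares) against the mean signal of each gene, with a logarithmic vertical axis. For Apoa4, Apom, Apoa5, Apoc2, Apoc3 and Apoc1 the strain means spread more widely than mice of a strain. The order is turned for Apob (0.354 against 0.627, without the listing order in the model). It is turned by less for Apoa1 (0.0704 against 0.0738), Apoa2 (0.0363 against 0.0434) and Apoe (0.0569 against 0.0658).

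Apom, which encodes the carrier of sphingosine-1-phosphate on high density lipoproteins, had the highest share of the 10. Its lowest strain mean with 2 or more mice was in BXD32/TyJ, whose 3 mice read 10.71, 10.81 and 10.75. The highest was in SWR/J, whose 2 mice read 12.01 and 12.14. The means of these 2 strains, picked as the ends of the order, differed 2.49-fold. BXD24/TyJ-Cep290<rd16>/J (10.85 ± 0.15, SD, n = 3) and BXD31/TyJ (10.92 ± 0.01, n = 2) were next lowest, and NOD/ShiLtJ (11.85 ± 0.26, n = 2) and SJL/J (11.84 ± 0.19, n = 3) next highest. C57BL/6J was at 11.65. The second Apom probe set, with a mean of 10.39, followed the first with r = 0.96 over 96 strain means and r = 0.84 within strains over 211 mice, and its share was 0.73.

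Apoa4, a lipid-induced apolipoprotein best known from the intestine, had the widest range. LP/J was highest, with mice at 12.43 and 12.13, followed by 129X1/SvJ at 12.15 and 11.96. The third, RIIIS/J, had mice at 11.28 and 12.77, so its mean of 12.02 rests on 1 high mouse. The lowest strains with 2 or more mice were BXD31/TyJ (9.83 and 9.64), C57BLKS/J (9.48 and 10.04) and AXB19b/PgnJ (10.14, 9.79 and 9.46). LP/J lay 5.82-fold above BXD31/TyJ, and these strains were picked as the ends of the order. The highest mouse of all, at 12.90, was in BXD64/RwwJ, whose other mouse read 10.42.

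Apoa5, an activator of lipoprotein lipase that lowers plasma triglyceride, was lowest in C3H/HeJ, where the 2 mice read 11.08 and 10.82. BXA14/PgnJ (10.98 ± 0.20, SD, n = 3) and BXH22/KccJ (mean 11.04) were next. BXD56/RwwJ was highest, with mice at 11.84 and 11.79, followed by AXB2/PgnJ (11.79, 11.70 and 11.78) and NOD/ShiLtJ (11.74 and 11.76). The highest strain lay 1.82-fold above the lowest, both picked as the ends of the order.

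Apoc2 was highest in NZW/LacJ (11.77 and 11.85) and NOD/ShiLtJ (11.79 and 11.74), and RIIIS/J followed with unlike mice (11.41 and 12.07). It was lowest in AXB10/PgnJ (10.99 and 11.07), BXA14/PgnJ (10.97, 11.13 and 11.17) and A/J (11.11, 11.10 and 11.23). NZW/LacJ lay 1.71-fold above AXB10/PgnJ. Both the lowest and the highest Apoc2 mouse, 10.96 and 12.11, belonged to BXD64/RwwJ, and the high one was also its high Apoa4 mouse.

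**Figure D3:**
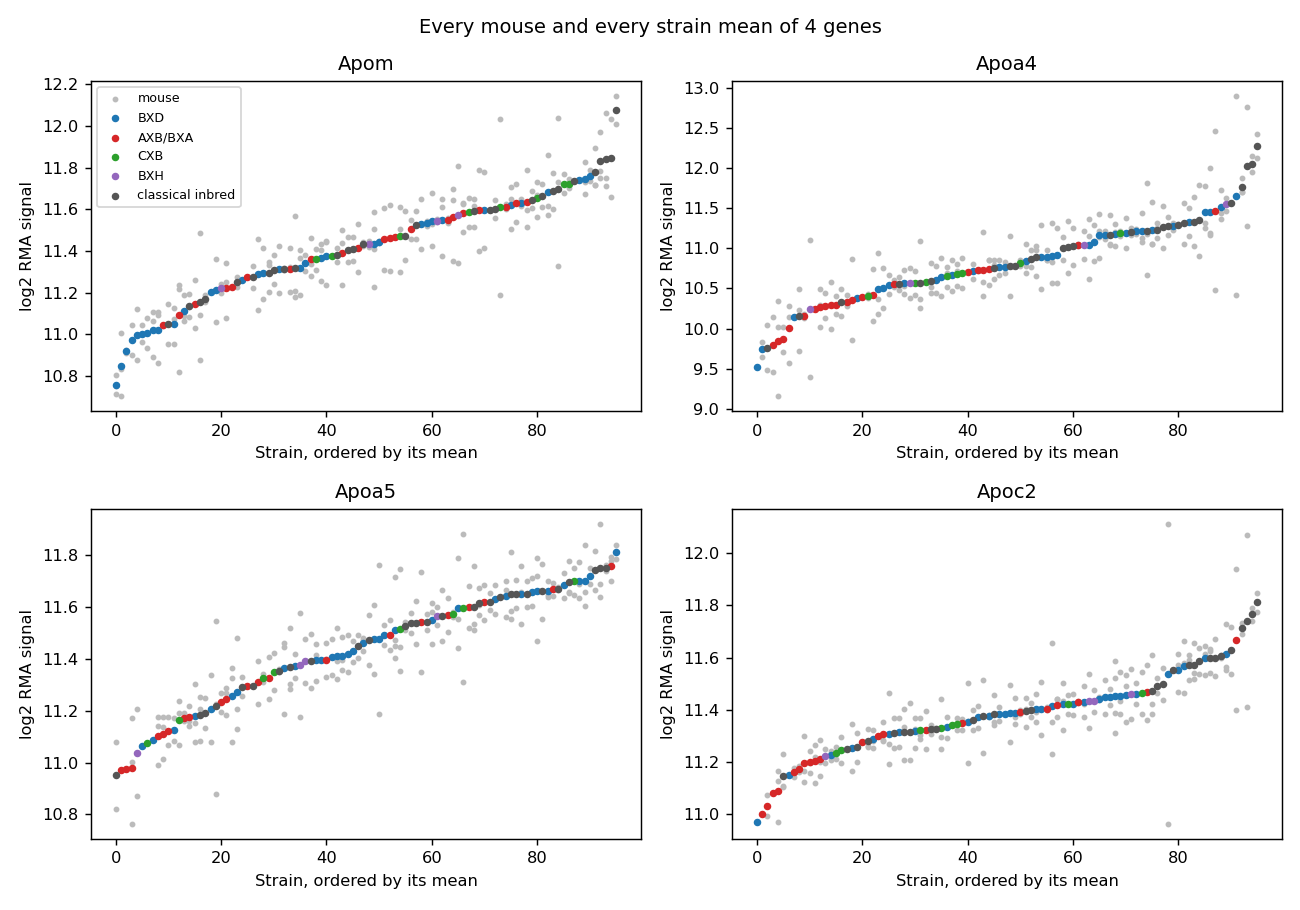
Log2 signal of every mouse (grey) and every strain mean (coloured by panel) for Apom, Apoa4, Apoa5 and Apoc2, with the 96 strains ordered by their mean within each plot. The means rise in small steps, and 1 neighbouring pair of Apom strains and 0 pairs of the other 3 genes differ by more than the within-strain SD.

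Neighbours in these orders were not separated. Of 95 neighbouring pairs of strains for each gene, 1 pair of Apom, Apoc1 and Apoc3 strains and 0 pairs of the other 7 genes differed by more than the within-strain SD, which for Apob holds the shift with listing order. Apoc3 ran from 12.89 in A/J to 13.20 in BTBR T<+> tf/J, a 1.25-fold range. Apoc1 ran from 12.56 in A/J to 12.77 in AXB2/PgnJ, and Apoa1 from 13.11 in AXB19/PgnJ to 13.49 in BXD50/RwwJ. The second Apoa1 probe set, with a mean of 12.84, followed the first with r = 0.85 over 96 strain means. Within strains r was 0.69 over 211 mice. It was called in the F-test too (adjusted p = 0.00375), with a share of 0.28. Apoa2, the second protein of high density lipoproteins, had the narrowest range, from 13.34 in BXA11/PgnJ to 13.50 in AXB2/PgnJ.

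Apoe stayed within a narrow band. Its 220 mice read between 12.63 and 13.12, with a median of 12.95. Among strains with 2 or more mice, AXB15/PgnJ was lowest, with mice at 12.67, 12.92 and 12.84, followed by NOD/ShiLtJ, whose 2 mice were unlike (12.63 and 12.98), and CXB7/ByJ (12.83 ± 0.07, SD, n = 3). MA/MyJ was highest, with mice at 13.12 and 13.05, followed by LP/J (13.05 ± 0.07, n = 2) and BXA24/PgnJ (13.04 ± 0.10, n = 2). The ends differed 1.22-fold. Over 220 mice, Apoe had r = 0.21 with the number in the sample title, whose meaning the labels do not give, while the other members lay between -0.08 and 0.06.

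Apob, whose 220 mice read between 7.53 and 10.04 with a median of 8.97, had a within-strain SD of 0.627 without the listing place in the model and 0.343 with it. Among the 35 strains with 3 mice, BXD69/RwwJ was lowest, with mice at 8.55, 7.53 and 8.98 in listing order, and BXD1/TyJ highest, with mice at 9.57, 9.06 and 9.78. At each place the BXD1/TyJ mouse lay above the BXD69/RwwJ mouse, but both strains were picked as the ends of the order. BXD1/TyJ was also listed earlier in the series, so strain is mixed with position there. Over all strains with 2 or more mice, the lowest were C57BLKS/J (8.14 ± 0.78, SD, n = 2), 129X1/SvJ (8.15 ± 0.66, n = 2) and BXD75/RwwJ (8.19 ± 0.90, n = 2), and the highest BXD1/TyJ (9.47 ± 0.37, n = 3), LG/J (9.46 ± 0.56, n = 3) and BXD64/RwwJ (9.41 ± 0.03, n = 2). Strains with 2 and with 3 mice hold different places, so this order is mixed with the number of mice. Taking off the place did not remove this, since the strain means then averaged 8.58 in the 9 strains with 1 mouse, 9.23 in those with 2 and 8.99 in those with 3. With 1 Apob probe set in the table, no second one could be set beside it.

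Each strain was next set against the mean of the other 95 strains in a limma fit over all 220 mice, adjusted over all probe sets and strains. Of 960 pairs of a member and a strain, 79 were called (8.23%), beside 4.69% of all pairs of a gene and a strain. Higher calls numbered 33, beside 2.35% of all pairs, and lower calls 46, beside 2.34%. Apom had 8 higher and 15 lower, Apoa5 8 and 14, Apoa4 6 and 7, Apoc2 5 and 4, Apoc3 3 and 4, Apoc1 2 and 1, Apoa1 1 and 0, and Apoe 0 and 1, while Apoa2 and Apob had 0. With the listing place as a factor 82 pairs were called, of which 78 were called without it too, and Apob had 1, BXD29/TyJ (adjusted p = 0.00578), which rests on 1 mouse. Of the 15 lower Apom strains, 11 were BXD strains, which make up 34 of the 96 strains. The share of BXD strains among the lower calls of all genes was not counted, so this cannot be read as a trait of Apom. BXD strains share their progenitors, so the 11 calls are not separate results. With the title number as a covariate 56 pairs were called, and without replicate 1, 2 or 3 of each strain 50, 28 and 41. Title numbers of a strain's mice often lay close together, so number and strain are partly mixed in the fit with that covariate.

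The largest called differences from the other strains were those of Apoa4. LP/J was higher by 1.48 ± 0.26 (log2, SE, adjusted p = 4.13e-05). BXD34/TyJ was lowest, at -1.31 ± 0.37 (adjusted p = 0.0244) with 1 mouse, followed by BXD31/TyJ at -1.09 ± 0.26 (0.00489), C57BLKS/J at -1.07 ± 0.26 (0.00611) and AXB19b/PgnJ at -1.03 ± 0.22 (0.000688). For Apom, BXD32/TyJ differed by -0.66 ± 0.09 (adjusted p = 7.17e-09) and SWR/J by 0.67 ± 0.11 (2.87e-06). The 1 Apoe call was AXB15/PgnJ at -0.14 ± 0.04 (adjusted p = 0.0408), while 0 Apoe pairs were called with the title number as a covariate or in any of the 3 fits that left out mice. At least 1 member was called in 47 strains, and 3 or more in 9 strains. BXA14/PgnJ had 4 members called, Apoa4, Apoa5, Apoc2 and Apoc3, each of them lower. The share of all genes called in each strain was not counted, so these counts per strain have nothing to stand beside. Apoa4 with Apoc2 and Apoa5 with Apoc3 moved together over strains, as given below, so the 4 calls are not separate results.

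The 4 other progenitors of the recombinant panels were set against C57BL/6J, which asks how F1 mice of a progenitor mother differed from mice of the C57BL/6J background. In all, 7 differences were called, and in each the progenitor was lower. Apoa5 was lower in C3H/HeJ by a difference of -0.67 ± 0.13 (log2, SE, adjusted p = 0.000178), in BALB/cJ by -0.44 ± 0.12 (0.00988) and in A/J by -0.41 ± 0.12 (0.0185). The C57BL/6J mice read 11.59 and 11.66 for Apoa5, the C3H/HeJ mice 11.08 and 10.82, the BALB/cJ mice 11.26, 11.08 and 11.21, and the A/J mice 11.54, 10.88 and 11.23. All mice of the 3 progenitors lay below both C57BL/6J mice.

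Apoc3 differed by -0.25 ± 0.06 in A/J (adjusted p = 0.0019) and by -0.18 ± 0.06 in BALB/cJ (0.0416), and Apoc1 by -0.19 ± 0.05 in A/J (0.0048). The A/J mice read 12.97, 12.82 and 12.87 for Apoc3, against 13.13 and 13.14 in C57BL/6J. Apom differed in DBA/2J by -0.49 ± 0.14 (0.0317), with mice at 11.49, 11.09 and 10.88 against 11.69 and 11.60 in C57BL/6J. Its second probe set gave -0.55 ± 0.15 (0.0324). The Apoe differences lay between -0.11 and -0.02, with SEs from 0.066 to 0.072, and none was called.

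In A/J, 3 members were called, beside 10.5% of all genes. In BALB/cJ 2 were, beside 9.72%, and in C3H/HeJ 1, beside 8.53%. In DBA/2J 1 was, beside 2.1%. The 4 comparisons share the 2 C57BL/6J mice. With only the 5 progenitor strains in the fit, 1 member was called in A/J, 0 in DBA/2J and 0 in BALB/cJ, and leaving out either C57BL/6J mouse ended the DBA/2J and BALB/cJ calls and that of Apoa5 in A/J. Apoa5 in A/J was also not called without the A/J mouse at 10.88 (difference -0.24, adjusted p = 0.337), Apoc1 in A/J not without C57BL/6J replicate 1 (0.13), and Apom in DBA/2J not without its replicate 2 (0.11) or 3 (0.357). In BALB/cJ, Apoa5 was not called without the second mouse (0.0612), and Apoc3 not without any 1 of its 3 mice (0.0686, 0.125 and 0.0813). The C3H/HeJ call of Apoa5 was kept in each alternative run, with adjusted p up to 0.0391.

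**Figure D4:**
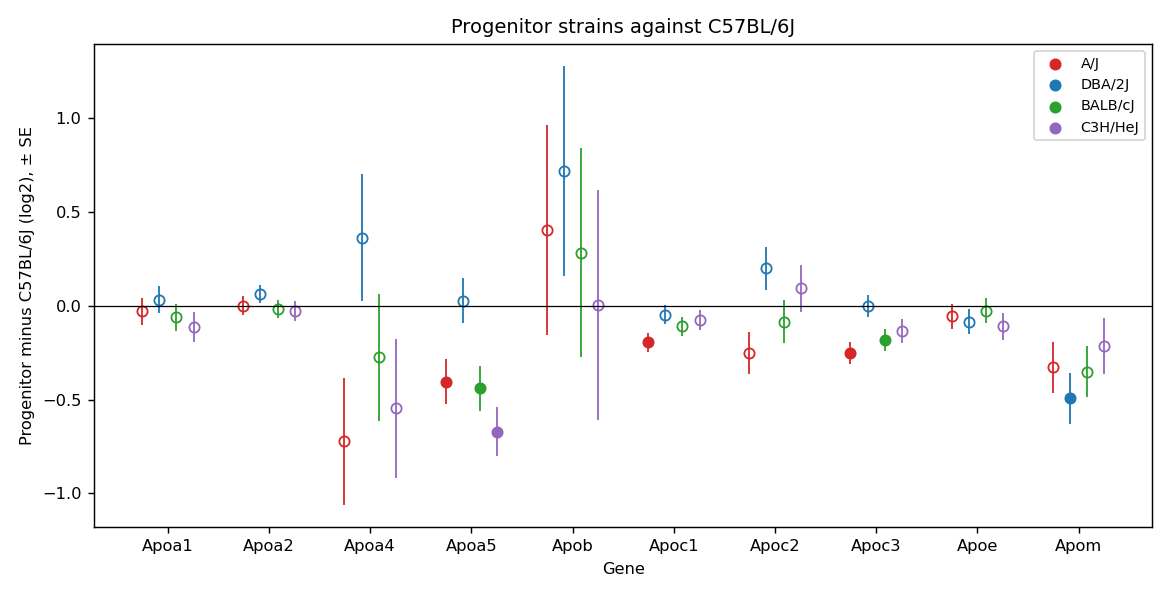
Difference in log2 signal between each progenitor strain and C57BL/6J, with SE, for the 10 genes. Filled points have an adjusted p under 0.05, and all 7 of them lie below 0. All points share the same C57BL/6J mice.

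Differences among strains of 1 panel were tested with the same F-test. Within BXD, 3 members were called, Apoa4 (adjusted p = 0.00127), Apoa5 (7.72e-06) and Apom (2.26e-13), beside 42.2% of all genes. Within AXB/BXA, 4 were called, Apoa4 (0.0301), Apoa5 (1.8e-06), Apoc2 (0.00203) and Apom (0.00486), beside 29% of all genes. Within the classical inbred strains, 5 were called, Apoa4, Apoa5, Apoc2, Apoc3 and Apom, beside 45.4%. In CXB and BXH, 0 members were called, beside 1.95% and 1.75% of genes. Apoe was called within none of these panels. With the listing place as a factor Apob was added within BXD (adjusted p = 0.0474), AXB/BXA (0.00464) and the classical strains (0.00379), beside 43.7%, 32.3% and 47.4% of all genes, and no other call changed.

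The shares differed between panels. That of Apom within BXD was 0.83, and that of Apoa5 within AXB/BXA was 0.82. Apoc2 had a share of 0.64 within AXB/BXA and 0.01 within BXD, which holds the unlike mice of BXD64/RwwJ, and the difference between panels was not tested. Within BXD, Apom means ran from 10.76 to 11.76 around progenitor values of 11.15 (DBA/2J) and 11.65 (C57BL/6J), with 11 of 34 strains below both and 4 above both. Within AXB/BXA, Apoa5 means ran from 10.97 to 11.76 around 11.22 (A/J) and 11.62, with 8 of 21 strains below both and 2 above both. For Apoc3, 20 of the 21 AXB/BXA strains lay between A/J and C57BL/6J and 1 above both.

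The genes were then compared with each other over the 96 strain means. Of 45 pairs, 32 had a positive Pearson correlation with an adjusted p under 0.05 by permutation, and 0 had a negative one. Each called r was 0.224 or more. As a description, 21.7% of all pairs among the 10474 genes above the median signal had an r that high and 19.8% one as far below 0, and among the 981 genes with a mean of 10 or more the shares were 31.2% and 29.3%. Apoa4 and Apoc2 had the highest, r = 0.77 (Spearman's rho = 0.72, permutation p = 1e-05, the smallest these permutations can give, adjusted p = 4.09e-05), although they lie on different chromosomes. It was 0.74 within BXD, 0.80 within AXB/BXA, 0.83 within CXB and 0.66 within the classical strains. Without the 2 strains farthest from the median of Apoa4 it was 0.75. BXH, with 4 strains, was too small for a value.

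Within the chromosome 9 cluster, Apoa5 and Apoc3 had r = 0.76 (rho = 0.77), Apoa1 and Apoa5 r = 0.63 (rho = 0.62), Apoa4 and Apoa5 r = 0.60 (rho = 0.60) and Apoa1 and Apoc3 r = 0.35 (rho = 0.43), with adjusted permutation p of 4.09e-05 for the first 3 and 0.00139 for the last. Within panels, Apoa5 and Apoc3 had r = 0.75 in BXD, 0.66 in AXB/BXA, 0.93 in CXB and 0.76 in the classical strains, while Apoa4 and Apoa5 had 0.66, 0.54, 0.11 and 0.54. Without the 2 strains farthest from the median of Apoa5, Apoa5 and Apoc3 had r = 0.77. Across clusters, Apoc1 and Apoc3 had r = 0.68 (rho = 0.67) and Apoa5 and Apoc1 r = 0.67 (rho = 0.70), both with adjusted permutation p = 4.09e-05. For Apoc1 and Apoc3 the panel values were 0.73, 0.62, 0.17 and 0.70, in the same order. The pairs of Apoe with its neighbours were lower, r = 0.26 with Apoc1 (rho = 0.26, adjusted permutation p = 0.0166) and r = 0.22 with Apoc2 (rho = 0.28, adjusted permutation p = 0.0391), the latter not called with the listing place taken off (adjusted permutation p = 0.0615). Apob was called with 1 of its 9 partners, Apoa5 (r = 0.27, rho = 0.26, adjusted permutation p = 0.0133), and with the listing place taken off with 3, Apoa5 (0.33), Apoc2 (0.22) and Apoc3 (0.22). Over the 35 strains with 3 mice alone, Apob had r = 0.58 with Apoa5. Apom was called with 4 of 9, and its r with Apoc2 was -0.06.

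Mice of the same strain were compared through their deviations from the strain mean, with mice permuted within strains. Of the 45 pairs, 13 were called and all were positive, with r of 0.244 or more. Of all pairs among the 10474 genes, 11.4% had an r that high and 7.29% one as far below 0, and among the 981 brighter genes 19.1% and 14.9%. With the listing place taken off 12 pairs were called, without that of Apoa1 and Apoa2. Apoa4 and Apoc2 again had the highest r, 0.65 (rho = 0.48, adjusted permutation p = 0.00015, 211 mice), which was 0.49 without BXD64/RwwJ and RIIIS/J. Apoa5 and Apoc3 had r = 0.46 (rho = 0.41), Apoc1 and Apoc3 0.45 (rho = 0.45), and Apoa1 and Apoe 0.41 (rho = 0.40). Without the 2 strains 9 pairs were called, and after each array was centred on its brightest probe sets 20 pairs were called.

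**Figure D5:**
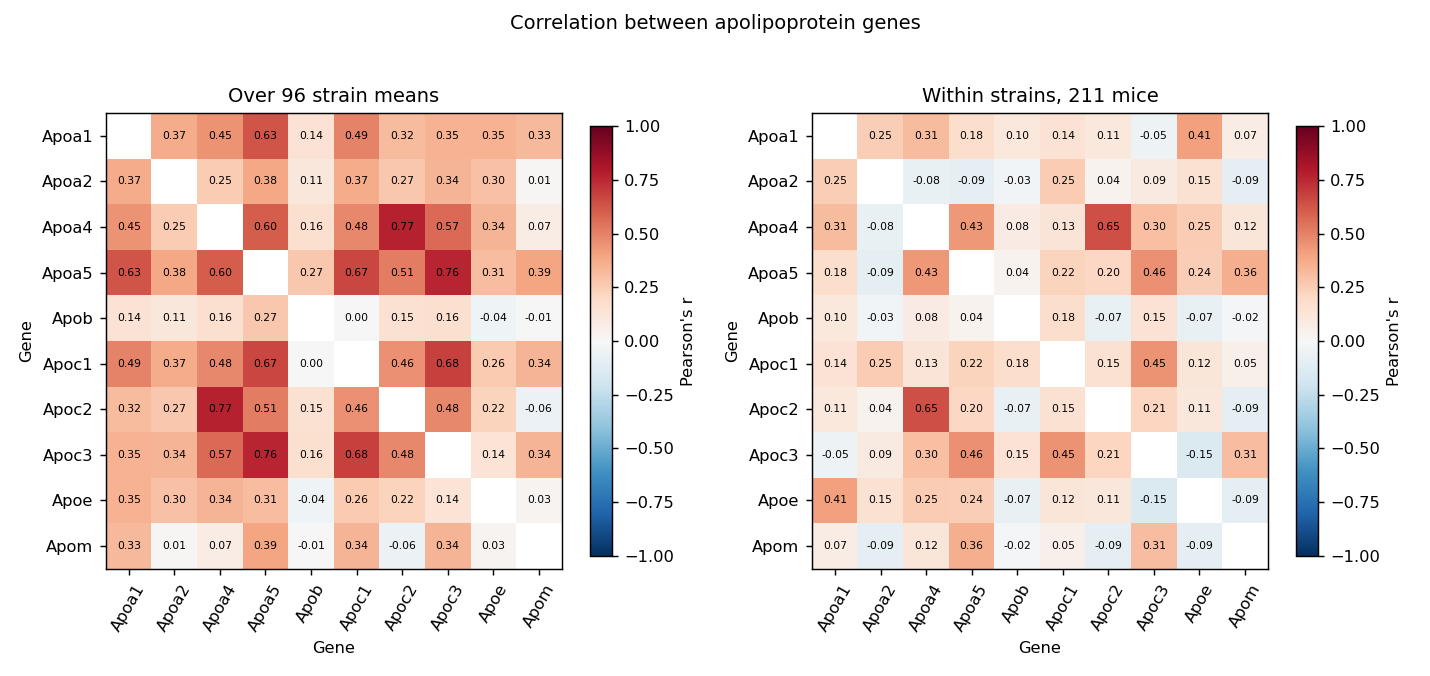
Pearson's r between each pair of the 10 genes over 96 strain means (left) and over deviations of 211 mice from their strain means (right), on a colour scale from -1 to 1. Apoa4 and Apoc2 have the highest value in both, 0.77 and 0.65, and the row of Apob reaches 0.27 on the left, with Apoa5.

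Marker lists were set beside the members over the same strain means, 30 pairs in all. The mean of 6 lipid droplet and steatosis genes rose with Apoc2 (r = 0.49, rho = 0.44, adjusted permutation p = 0.00015) and Apoa4 (r = 0.46, rho = 0.44, 0.00015), and with Apoa2 (r = 0.35, rho = 0.30, 0.0024). It ran against Apom (r = -0.38, rho = -0.35, adjusted permutation p = 0.0011). Within panels the Apoc2 value was 0.53 in BXD, 0.57 in AXB/BXA, 0.60 in the classical strains and -0.65 in the 8 CXB strains, and the Apom value was -0.56, -0.38, -0.36 and 0.48. The sign in CXB was thus turned for both. Without the 2 strains farthest from the median of the list, the values over all strains were 0.45 for Apoc2, 0.44 for Apoa4 and -0.36 for Apom. The mean of the 5 hepatocyte markers was called with 5 members, Apoc1 (r = 0.38), Apoe (0.37), Apoc3 (0.31), Apoa1 (0.30) and Apoa5 (0.28), with adjusted permutation p from 0.00127 to 0.0173, and the 8 macrophage markers with 0. The share of all genes with an r as high with these lists was not counted, so the counts cannot be read as a trait of the members. The part of these cell and lipid differences in the strain differences was not tested.

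The 15 measured transcription factors were compared with the members after these values were seen, 150 pairs in all. Of them, 100 were called and all were positive, with r of 0.22 or more. Of all pairs of these factors with the 10474 genes, 20.7% had an r that high and 25.6% one as far below 0, and with the 981 brighter genes 28.7% and 25.2%. Ppara, the nuclear receptor that responds to fatty acids, was called with all 10 members, at r of 0.244 or more, which 28.7% of the 10474 genes and 39.9% of the 981 brighter ones also had. Its r was 0.84 with Apoa5 (rho = 0.85, adjusted permutation p = 5e-05), 0.68 with Apoc3 and 0.64 with Apoc1, and 0.24 with Apoe (adjusted permutation p = 0.0275). Without the 2 farthest strains the Apoa5 value was 0.83, and it was 0.89 within BXD, 0.91 within AXB/BXA, 0.80 within CXB and 0.62 within the classical strains. For Apoa5, Cebpa had r = 0.71, Nr1h3 0.66 and Nr1h4 0.62. The CXB values of Ppara with Apoa4 and Apoc2 were -0.24 and -0.10. Of the 15 factors, 13 differed between strains, beside 59.2% of all genes and 81.4% of the probe sets above the median signal. Ppara had a share of 0.73.

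Genes around lipoprotein metabolism were also tested for differences between strains. Of the other apolipoproteins 7 of 8 measured were called, with Apol7a (share 0.67), Apon (0.65), Apol9a (0.58) and Apof (0.53) highest. All 10 measured genes of lipoprotein assembly and secretion were called, led by Apobec1, the editing enzyme of Apob mRNA (0.90), Sort1 (0.64), Cideb (0.63) and Sar1b (0.58). Mttp, which loads lipid onto apolipoprotein B and was picked after its value was seen, had 0.58. All 8 genes of high density lipoprotein and lipid exchange were called, among them Lcat (0.63), all 5 of lipolysis control, among them Lpl (0.69) and Angptl4 (0.62), and all 3 of remnant uptake, among them Vldlr (0.71). Of the enterocyte list 3 of 5 genes were measured, and Fabp2 had a mean of 10.86 with a share of 0.68, while Vil1 (3.45) and Rbp2 (2.82) lay below the median of all probe sets. Of the 3, 2 were called. Of the marker lists, 8 of 8 macrophage, 5 of 6 lipid droplet, 4 of 5 hepatocyte, 1 of 3 acinar and 0 of 2 adipocyte genes were called. All these counts stand beside 59.2% of all genes and 81.4% of the probe sets above the median signal. Among probe sets with a mean from 10 to 12 the share was 92.3%. The lists were not matched for signal, so the counts cannot be read as a trait of these genes.

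The genes whose strain means ran closest to those of 4 members were found among 10474 genes above the median signal, as a description. They were Fabp2 (r = 0.73), Ppa2, Mgll, Nanp and Perp (0.68) for Apoa4. For Apom they were Slc29a1 (0.69), Rdh16f2, Hbs1l, Papss2 and Slco1a4 (0.66). For Apob they were Secisbp2l (0.74), Ankrd11, Prox1, Rbm6 and Msl2 (0.63), all but Rbm6 called for a shift with the listing place, and for Apoe Rdh7 (0.50), Apoh, Wdr91, Ambp and Atxn2 (0.47). The values for Apoe were the lowest of the 4 sets.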

How the data were processed

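The authors deposited log2 signals per probe set from Affymetrix HT-MG 430 PM arrays of liver RNA, summarised by robust multi-array averaging. GCOS and RMA are the tools in the submitters' processing notes, with no versions stated. RMA quantile-normalizes the probe signals of the arrays. After summarising, array medians ran from 3.43 to 3.56 and array maxima from 13.36 to 13.94. Signals near the top of the range can be compressed. Where a strain's sequence differs from a probe, hybridisation can be weaker. Maternal strain came from the labels, and replicate numbers follow accession order. Many probe sets, Apob among them, shifted with that order, for a reason not given in the sources used here. A fit with the order as a factor was added after the data were seen. The labels give no litter, cage or day, so p-values measure the spread between these mice. No depth exists for arrays, and their number limits the precision.

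After 104 control probe sets were removed, 45037 remained. Platform annotation gave 28898 of them 1 symbol, 551 several and 15588 none, and 21 listed genes were not analysed here. The probe set with the highest mean stood for its gene. R 4.3.3 with limma 3.58.1 gave two-sided moderated tests with Benjamini-Hochberg adjustment over all probe sets, and adjusted p under 0.05 was called. Fits over all mice had 124 residual degrees of freedom. Permutation tests (NumPy) used 100000 resamples, two-sided, adjusted within each family of pairs. The fits were tested on simulated data.

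The genes, lists and tests were chosen with earlier results of these data known. Named were all members, their 3 lowest and 3 highest strains with 2 or more mice, up to 4 genes of a list by share, and the 5 genes most like the 3 members with the largest SD of strain means and like Apoe. The transcription factor comparison and the fits without BXD64/RwwJ and RIIIS/J were added after the data were seen. Alternatives were another probe set rule, a filter on dim probe sets, array centring, trended robust moderation, the title number as a covariate, and fewer mice.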

Additional observations from a re-analysis of the deposited data

Results flagged for a closer look

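In BXD20/TyJ, the 1 strain with 4 mice, 1 mouse stood apart from the other 3 for Apoa2, at 13.40 against 13.45, 13.45 and 13.45. Its gap to the nearest mouse exceeded Dixon's 95% limit for 4 values, which chance passes in about 1 of 20 groups, and all 10 genes were examined. The value of 13.40 lay inside the range of all Apoa2 mice, 13.28 to 13.55 with a median of 13.42. The within-strain SD of Apoa2 was 0.0434.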

How the results depend on the processing

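The replicate numbers follow accession order, so no label pairs the mice, but the fits were repeated with that number as a replicate block, chosen after seeing the data. The block called 8 members in place of 7, adding Apob (F = 2.28, share 0.35), and 4, 5 and 6 within BXD, AXB/BXA and the classical strains in place of 3, 4 and 5. It called 82 pairs of a strain against the others (79), 33 correlations over strain means (32), 12 within strains (13) and 101 with transcription factors (100), and changed no progenitor call. With the block, Apob turned sign with Apoe (0.067) and Apom (0.02) over strain means and with Apoc3 (-0.028) and Apom (0.168) within strains, and Apoe with macrophage genes became 0.008. The 7 genes that differed between strains became 5 without the first, the second or, where present, the third mouse of every strain. They became 8 with trended, robust moderation. That moderation raised the calls within BXD from 3 to 6 and within CXB from 0 to 1. Leaving out mice gave 1 to 3 calls within AXB/BXA (4 with all mice), 1 to 4 within the classical strains (5), and 28 to 50 pairs of a strain against the others (79). For progenitors, leaving out mice gave 1 to 4 calls in A/J, 0 to 1 in DBA/2J and 0 to 1 in BALB/cJ. With only the progenitor strains in the fit these were 1, 0 and 0, with centred arrays BALB/cJ had 1, and with the title number as a covariate DBA/2J had 0. Centring the arrays raised the within-strain correlations called from 13 to 20. The cause was not tested, beyond there being fewer mice.

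Signs changed in 19 of 470 values of progenitor contrasts and 19 of 395 correlations, none called in either setting. With the title number, Apob became -0.06 in A/J, -0.48 in DBA/2J, -0.23 in BALB/cJ and -0.44 in C3H/HeJ, and Apoa5 -0.04 in DBA/2J. Title number and strain are partly mixed in that fit. With centring, Apoa1 became 0.00 in A/J, Apoc3 0.02 in DBA/2J and Apoa2 0.01 in BALB/cJ. Leaving out mice, A/J gave -0.06 to 0.01 for Apoa1, -0.02 to 0.02 for Apoa2 and -0.07 to 0.89 for Apob. DBA/2J gave -0.05 to 0.08 for Apoa5 and -0.02 to 0.03 for Apoc3. Apob gave -0.19 to 0.76 in BALB/cJ and -0.47 to 0.48 in C3H/HeJ. Over strain means, centring turned Apob and Apoe to 0.109 and Apob and Apom to 0.033. With strains of 2 or more mice, Apob and Apoc1 gave -0.114 and Apob and Apom 0.06. Without BXD64/RwwJ and RIIIS/J, Apob and Apom gave 0.001 over means, and within strains Apoa2 and Apoc2 gave -0.006 and Apoc2 and Apoe -0.02. Within strains, centring gave 0.041 for Apoa1 and Apoc3, 0.155 for Apoa2 and Apob, 0.058 for Apob and Apoe and 0.038 for Apob and Apom. For marker lists, centring gave 0.053 for Apoa1 with lipid droplet genes, 0.125 for Apob with hepatocyte genes and 0.007 for Apoe with macrophage genes.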
